A study of Mus musculus with 16 samples.

Results

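Expression of 9 genes that mark the ventral spinal cord and its motor neurons, out of 24238 RefSeq genes in the table, was followed in mouse embryoid bodies (EBs) before and after treatment with retinoic acid (RA). They were chosen by gene symbol and not by a rule on their values, although earlier results of these data were known. They are Olig2, Nkx2-2, Mnx1, Isl1, Isl2, Lhx3, Lhx4, Phox2a and Chat. Together they have 11 of the 33701 RefSeq rows that were used, and 7 of them have 1 row. EBs, which are aggregates of differentiating cells, were grown from R1 mouse embryonic stem (ES) cells for 4 days in medium without Lif in low-binding dishes. Day 0 was taken just before RA was added and day 4 after 4 days in 2 µM RA, with 2 biological replicates a day and 4 RNA samples in all. Each RNA sample was divided into 4 vials, which received in vitro transcribed (IVT) spike-in mix 1, 2 or 3 or none (mix 4) together with an ERCC mix, and the 16 vials gave 16 total RNA libraries depleted of ribosomal RNA. Vials are splits of 1 RNA and not replicates, so each RNA sample enters as the mean of its vials and n is 2 a day. The labels call the cell type embryonic stem cells at both days, although both are EBs. The samples hold no EBs kept for 4 days without RA, so RA and the further time in culture cannot be told apart.

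In the developing spinal cord, Sonic hedgehog from the floor plate and RA from the neighbouring mesoderm act on neural progenitors, and the transcription factors that these induce divide the ventral part into domains. Progenitors with Olig2 give rise to motor neurons and later to oligodendrocytes, and those with Nkx2-2, nearer the floor plate, give rise to interneurons and, in the hindbrain, to visceral motor neurons. Cells that leave the cycle as motor neurons switch on Mnx1, Isl1, Isl2, Lhx3 and Lhx4, Phox2a marks cranial motor neurons and noradrenergic neurons, and Chat makes the transmitter acetylcholine. Several of these genes also work elsewhere, such as Isl1 in heart progenitors and endocrine cells, Lhx3 and Lhx4 in the pituitary, and Nkx2-2 and Mnx1 in the pancreas.

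Of the 9 genes, only Isl1 was measured at 1 FPKM (fragments per kilobase of transcript, scaled to the mapped fragments of the library) or more in any library, and it was so in all 16. It lay at 5.34 ± 0.725 FPKM (SD, n = 2) at day 0 and at 3.75 ± 0.310 FPKM at day 4. The other 8 genes stayed below 1 FPKM in every library, and 4 of them, Olig2, Nkx2-2, Lhx4 and Chat, stayed below 0.1 FPKM in all 4 RNA samples. Of the 144 values of the 9 genes, 54 were listed at 0 and 97 were below 0.1 FPKM. Isl1 made up 78.8% to 94.5% of the summed FPKM of the 9 genes in the single libraries. The other 8 genes summed to a median of 0.824 FPKM over the libraries of day 0 (lowest 0.406, highest 1.34) and of 0.359 FPKM at day 4 (0.263 to 0.495). For scale, 55.1% of all genes that were above 0 in any library had a mean of 1 FPKM or more at day 0 and 53.8% at day 4. FPKM is a value per transcript length, which lets the levels of different genes be set side by side. It is not scaled for GC content, so such comparisons are approximate.

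**Figure D1:**
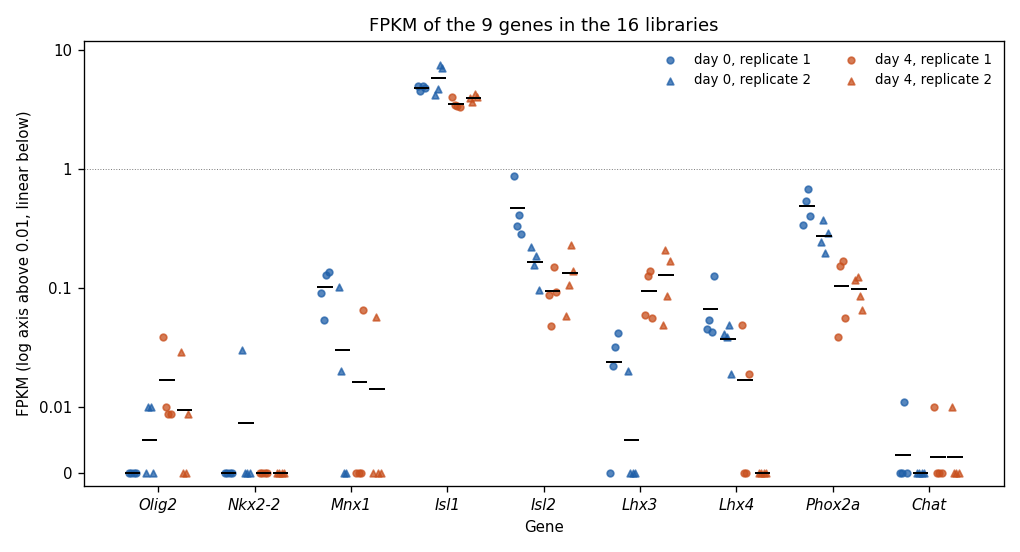
FPKM of each of the 9 genes in the 16 libraries, on a log axis above 0.01 FPKM and a linear one below, with circles for replicate 1, triangles for replicate 2 and a black line for the mean of the 4 vials of an RNA sample. All 16 points of Isl1 lie above the dotted line at 1 FPKM, and those of the other 8 genes lie below it.

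The regions just before the start sites of Isl1 and Olig2 are shown because both are motor neuron lineage factors, of which one was measured in every library and the other was close to absent. They are the 250 bases upstream of the RefSeq start site in GRCm38.p6, 5′ to 3′ on the strand of the gene, with each CG in capitals. That of Isl1 is chr13:116309689-116309938 on the minus strand and that of Olig2 is chr16:91225300-91225549 on the plus strand.
Isl1: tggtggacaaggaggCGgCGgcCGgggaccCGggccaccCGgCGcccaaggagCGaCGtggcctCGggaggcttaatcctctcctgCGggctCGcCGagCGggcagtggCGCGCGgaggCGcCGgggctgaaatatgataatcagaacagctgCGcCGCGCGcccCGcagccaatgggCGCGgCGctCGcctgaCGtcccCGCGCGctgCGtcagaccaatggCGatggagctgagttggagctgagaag
Olig2: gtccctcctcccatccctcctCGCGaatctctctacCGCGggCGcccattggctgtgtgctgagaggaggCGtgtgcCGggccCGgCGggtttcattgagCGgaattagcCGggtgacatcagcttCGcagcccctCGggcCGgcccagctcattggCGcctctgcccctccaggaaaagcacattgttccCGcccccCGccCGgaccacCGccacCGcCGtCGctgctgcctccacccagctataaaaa
The region of Isl1 holds 33 CG and that of Olig2 22. The 10 such regions of the 9 genes (Lhx3 has 2 start sites) hold 8 to 33 CG, against a median of 6 and a 75th percentile of 16 over the 32851 RefSeq regions of this length. AGGTCA, the site that RA receptors bind in pairs, was searched on both strands. It occurs in 0 of the 10 regions and in 14.02% of all. Direct repeats were searched with a looser site, RGKTCA, where R is A or G and K is G or T. With 1, 2 or 5 bases between the copies, they occur in 0 of the 10 and 0.426% of all. A search of these letters in this window says nothing about binding elsewhere.

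The libraries differed in ways that touch these genes. Over all rows of the table, spike-ins included, FPKM summed to 411090 to 622888 per library. Per library, 20555 to 22156 of these rows were above 0, and the smallest value above 0 was 0.009 to 0.011. The RefSeq rows alone summed to 407711 to 616363 at day 0 and to 407961 to 431787 at day 4. In replicate 2 of day 0, the vials of mixes 3 and 4 stood apart from those of mixes 1 and 2, although all 4 held the same RNA. Their log2(FPKM + 0.1) was higher by a median of 0.98 in transcripts with under 40% GC and the same median was -2.63 in those with over 60%. A slope of the same direction lay between the days, where the median of day 4 minus day 0 was 0.74 in transcripts under 40% GC, 0.09 from 45% to 50%, -1.08 from 55% to 60% and -1.47 over 60%. Of the 9 genes, Isl1 has the lowest GC content (45.7%) and Phox2a the highest (63.8%), and Olig2, Nkx2-2, Mnx1, Isl2 and Lhx3 lie between 55% and 61%. How much of a difference between the days comes from this slope cannot be read from the levels alone, so a change of a call with FPKM corrected for GC content is given beside each gene named, an alternative chosen after the data were examined.

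**Figure D2:**
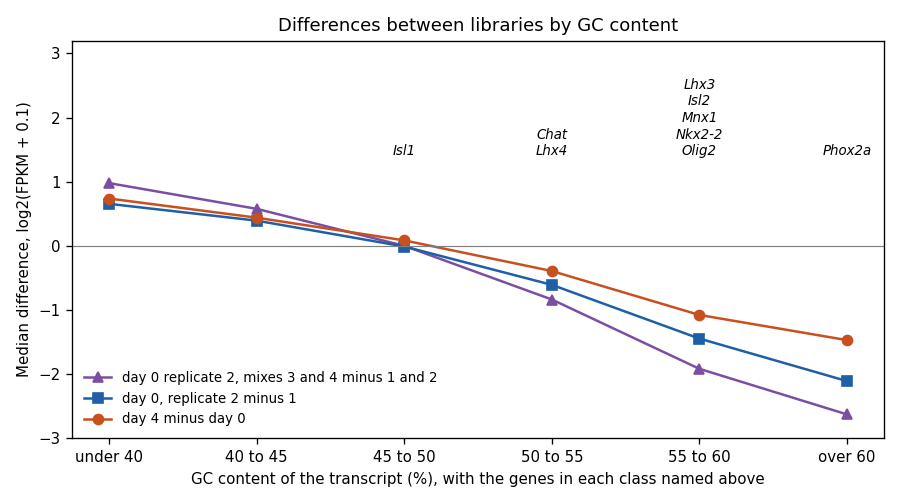
Median difference of log2(FPKM + 0.1) in 6 classes of transcript GC content (%), over transcripts with a mean of at least 1 FPKM, between vials of day 0 replicate 2 (triangles), between the replicates of day 0 (squares) and between the days (circles). All 3 lines fall as GC content rises, and the class of each gene is written above.

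In the test of day 4 against day 0, 2 of the 9 genes were called, Lhx3 as higher and Phox2a as lower, and the other 7 did not pass. Over all 20553 genes tested, 30.4% were called, 16% as higher and 14.5% as lower at day 4, so the share of the 9 genes called was near that of all genes. Their median log2 fold change was -0.48, against -0.03 for all genes tested, and with the GC correction these medians were -0.02 and 0.03. In libraries, all 8 of day 4 lay above all 8 of day 0 for Lhx3 and below for Phox2a, and the days overlapped for the other 7 genes. Over all genes, 19.8% had the libraries of day 4 wholly above and 14.6% wholly below. The test was limma on log2(FPKM + 0.1) with Benjamini-Hochberg adjustment over all genes and an adjusted p of at most 0.05. In bulk RNA, fewer cells of a type and less RNA per cell cannot be told apart.

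**Figure D3:**
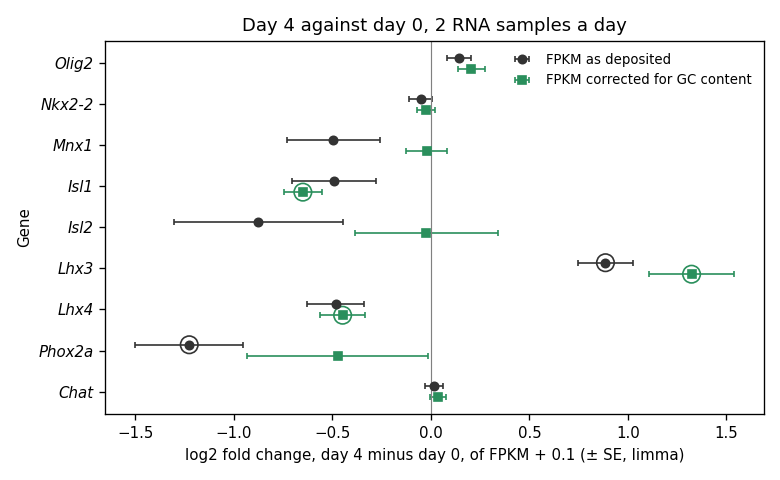
Log2 fold change of day 4 against day 0 of FPKM + 0.1 for each gene, with the standard error, for FPKM as deposited (black circles) and corrected for GC content (green squares), where a ring marks an adjusted p of at most 0.05 in limma. Lhx3 is ringed on the right in both, Phox2a only as deposited, and Isl1 and Lhx4 only after the correction.

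Olig2 and Nkx2-2, the factors of the ventral progenitors, were close to absent from the table. Olig2 (chr16:91225550-91228677, plus strand) had a median of 0 FPKM over the 8 libraries of day 0, with 6 of them listed at 0 and the highest at 0.01. At day 4 its median was 0.009 FPKM, with 2 libraries at 0 and the highest at 0.039. Both ranges are within a few steps of the rounding of the values, which is about 0.01. The means of the RNA samples were 0 and 0.005 FPKM before RA and 0.0168 and 0.0095 FPKM after it, and the log2 fold change was 0.14 ± 0.06 (SE) with an adjusted p of 0.159 in limma. With the mix 4 vials alone it was 0.12 and passed (adjusted p = 0.0340), on values of 0 and 0.009 FPKM. Nkx2-2 (chr2:147176485-147195434, minus strand) was listed at 0 in 15 of the 16 libraries. The exception was mix 1 of day 0 replicate 2 at 0.03 FPKM, from the row NM_001077632, while the row NM_010919 was at 0 in every library. Its log2 fold change was -0.05 ± 0.06 (adjusted p = 0.513, limma).

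Mnx1, also known as Hb9, is the homeodomain factor that separates motor neurons from interneurons. Mnx1 (chr5:29473823-29478470, minus strand) was measured in the vials of mixes 1 to 4 at 0.09, 0.054, 0.129 and 0.137 FPKM for day 0 replicate 1, and at 0.101, 0.02, 0 and 0 FPKM for day 0 replicate 2. At day 4 it was above 0 in 1 vial of each replicate, at 0.065 FPKM in mix 4 of replicate 1 and at 0.057 FPKM in mix 2 of replicate 2. The 2 vials at 0 at day 0 were those of mixes 3 and 4 of replicate 2, which were low in transcripts rich in GC, and Mnx1 has 58.7% GC. The day means were 0.0664 ± 0.0511 and 0.0153 ± 0.00141 FPKM, and the log2 fold change was -0.49 ± 0.24 (adjusted p = 0.185, limma). With the correction for GC content it was -0.02 ± 0.10 (adjusted p = 0.879), so the difference between the days was not seen there. That correction rescales values, so the vials listed at 0 stayed at 0. With day 0 replicate 2 from mixes 1 and 2 the log2 fold change was -0.65 and passed (adjusted p = 0.0206).

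Isl1 and Isl2 are LIM homeodomain factors of newly formed motor neurons and of sensory neurons. Isl1 (chr13:116298270-116309688, minus strand) ranked first of the 9 genes at both days, at percentile 61.0 and 59.2 of all genes tested. Its 8 libraries of day 0 ranged from 4.18 to 7.49 FPKM with a median of 4.88, and those of day 4 from 3.30 to 4.29 FPKM with a median of 3.80. The ranges touched, since mix 1 of day 0 replicate 2 at 4.18 FPKM lay under the highest library of day 4, mix 3 of replicate 2. The means of the RNA samples did not overlap, with 4.83 and 5.85 FPKM before RA and 3.54 and 3.97 FPKM after it. The log2 fold change was -0.49 ± 0.21 with an adjusted p of 0.153 in limma, which did not pass.

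The vials of 1 RNA also differed in Isl1. In day 0 replicate 2 the 4 vials gave 4.18, 4.73, 7.49 and 7.01 FPKM, so that mixes 3 and 4 were on average 1.63 times mixes 1 and 2. The same ratio was 1.02 in replicate 1 of day 0, and 0.890 and 1.09 in the replicates of day 4. The spread between vials of 1 RNA in replicate 2 was therefore larger than the difference between the days. With FPKM corrected for GC content the log2 fold change of Isl1 was -0.65 ± 0.10 and passed (adjusted p = 0.00950, limma). It was -0.30 with day 0 replicate 2 from mixes 1 and 2 (adjusted p = 0.109) and -0.24 with the same FPKM sum in every library (adjusted p = 0.578), neither of which passed.

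**Figure D4:**
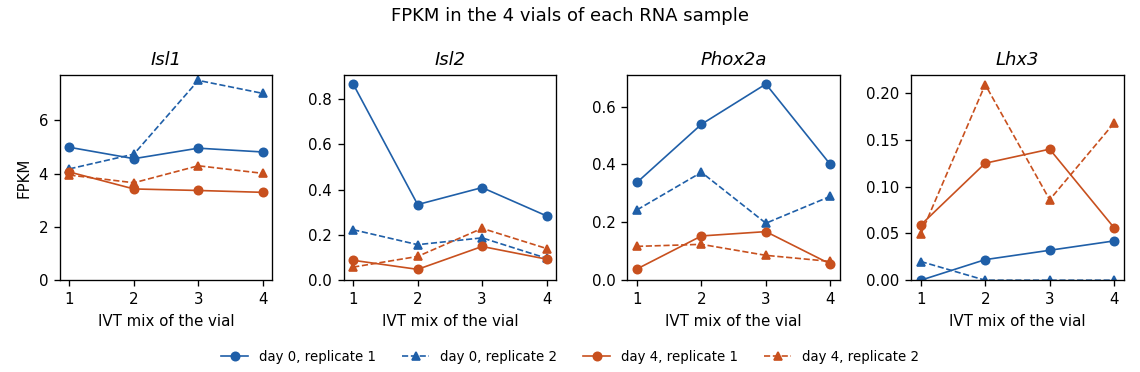
FPKM of Isl1, Isl2, Phox2a and Lhx3 in the 4 vials of each RNA sample, by IVT mix, with day 0 in blue, day 4 in orange, solid lines for replicate 1 and dashed lines for replicate 2; each panel has its own axis from 0. Mixes 3 and 4 of day 0 replicate 2 stand above all other vials of Isl1, and mix 1 of day 0 replicate 1 above those of Isl2.

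Isl2 (chr9:55538677-55547667, plus strand) was far lower than Isl1, with a median of 0.254 FPKM at day 0 (0.097 to 0.866) and of 0.099 FPKM at day 4 (0.048 to 0.229). It was above 0 in all 16 libraries, and the days overlapped. Its vials of day 0 replicate 1 gave 0.866, 0.334, 0.409 and 0.284 FPKM, so that mix 1 was more than 2 times any other vial of that RNA. The means of the RNA samples were 0.473 and 0.166 FPKM before RA and 0.0945 and 0.133 FPKM after it. The replicates of day 0 thus differed more from each other than replicate 2 of day 0 did from day 4, and the log2 fold change of -0.88 ± 0.43 did not pass (adjusted p = 0.193, limma). With the GC correction it was -0.02 ± 0.36 (adjusted p = 0.961).

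Lhx3 and Lhx4 are LIM homeodomain factors that work with Isl1 in a complex built on Ldb1 to specify motor neurons. Lhx3 (chr2:26200212-26208249, minus strand) was the gene called as higher at day 4. At day 0 its vials gave 0, 0.022, 0.032 and 0.042 FPKM in replicate 1 and 0.02, 0, 0 and 0 FPKM in replicate 2. At day 4 they gave 0.059, 0.125, 0.14 and 0.056 FPKM in replicate 1 and 0.049, 0.209, 0.086 and 0.168 FPKM in replicate 2. Every library of day 4 lay above every library of day 0, although the highest of day 0 and the lowest of day 4 were only 0.042 and 0.049 FPKM. The day means were 0.0145 ± 0.0134 and 0.112 ± 0.0233 FPKM. The log2 fold change was 0.89 ± 0.14 (adjusted p = 0.0216, limma), and 1.32 ± 0.21 with the GC correction (adjusted p = 0.0117). The correction rescales values and leaves a 0 at 0, as in 4 libraries of day 0, which include mixes 3 and 4 of replicate 2. How far this adds to the larger change was not tested. The offset of 0.1 FPKM is as large as the values, so the fold change understates the ratio of the means. All of the signal of Lhx3 came from the row NM_010711, and NM_001039653 was at 0 in the 16 libraries. The call was lost with no filter on low values (adjusted p = 0.0568, limma) and with the mix 4 vials alone (0.384). It was also lost without any 1 of the 4 RNA samples, where the log2 fold change of Lhx3 was 0.77 to 1.01. Such a fit leaves 1 RNA sample at a day. Without either replicate of day 4 no gene of the whole table was called, so the call of Lhx3 could not be kept there.

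Lhx4 (chr1:155698031-155751726, minus strand) was low at both days and listed at 0 in 6 of the 8 libraries of day 4. At day 0 all 8 libraries were above 0, with a median of 0.044 FPKM (0.019 to 0.126), and at day 4 the median was 0 and the highest was 0.049 FPKM. The days overlapped through that 1 library, mix 1 of replicate 1. The RNA samples gave 0.067 and 0.037 FPKM before RA and 0.017 and 0 FPKM after it. The log2 fold change of -0.48 ± 0.14 did not pass (adjusted p = 0.0745, limma), while with the GC correction -0.45 ± 0.12 did (adjusted p = 0.0395). It also passed with day 0 replicate 2 from mixes 1 and 2 (adjusted p = 0.0395) and with day 4 replicate 1 from mixes 2, 3 and 4 (adjusted p = 0.0454). Lhx3 and Lhx4, which are close paralogs, thus had log2 fold changes of opposite sign.

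Phox2a (chr7:101818313-101822726, plus strand), a paired-type homeodomain factor, was the gene called as lower at day 4. It was above 0 in all 16 libraries, with 0.338, 0.539, 0.678 and 0.4 FPKM in the vials of day 0 replicate 1 and 0.243, 0.373, 0.197 and 0.29 FPKM in those of replicate 2. At day 4 the vials gave 0.039, 0.153, 0.168 and 0.056 FPKM in replicate 1 and 0.117, 0.124, 0.086 and 0.065 FPKM in replicate 2. The lowest library of day 0 at 0.197 FPKM lay above the highest of day 4 at 0.168 FPKM, and the day means were 0.382 ± 0.151 and 0.101 ± 0.00424 FPKM. The log2 fold change was -1.23 ± 0.27 with an adjusted p of 0.0429 in limma. The offset also shrinks the change of a gene at this level, and with a pseudocount of 0.01 it was -1.77. With the GC correction it was -0.47 ± 0.46 and did not pass (adjusted p = 0.447). The call was also lost with a pseudocount of 1 (adjusted p = 0.0734), with no filter on low values (0.0981) and with the log2 means of the vials (0.0514). The same held with the mix 4 vials alone (0.0574) and with eBayes without a trend (0.0522). The call was lost too when day 4 replicate 1 was taken from mixes 2, 3 and 4 (0.0571), since the study describes its mix 1 library as rich in ribosomal RNA. Without either replicate of day 4 no gene of the whole table was called, so the call of Phox2a could not be kept there. Its log2 fold change was then -1.25 without replicate 1 and -1.21 without replicate 2.

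Chat (chr14:32408203-32465909, minus strand), the enzyme that makes acetylcholine and so the defining gene of a working motor neuron, was above 0 in 3 of the 16 libraries. These were mix 3 of day 0 replicate 1 at 0.011 FPKM and mix 1 of both replicates of day 4 at 0.01 FPKM, which is 1 step of the rounding each. Its log2 fold change was 0.02 ± 0.05 (adjusted p = 0.793, limma).

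In order of day means, day 0 had Isl1, Phox2a, Isl2, Mnx1, Lhx4, Lhx3, Nkx2-2, Olig2 and Chat, and day 4 had Isl1, Isl2, Lhx3, Phox2a, Mnx1, Olig2, Lhx4, Chat and Nkx2-2. Isl1 stood clear of the next gene at both days. At day 0, Phox2a at 0.489 and 0.276 FPKM and Isl2 at 0.473 and 0.166 FPKM overlapped, and so did Mnx1 with Lhx4 and Lhx3 with Nkx2-2. Isl2 lay above Mnx1, at 0.103 and 0.0303 FPKM, and Lhx4 above Lhx3 in both RNA samples. At day 4, Isl2, Lhx3 and Phox2a overlapped at 0.0945 to 0.133 FPKM, and all 3 lay above Mnx1 at 0.0163 and 0.0143 FPKM, which overlapped with Olig2 and Lhx4. Over the 16 libraries, the genes whose log2 values ran most like those of Isl1, among 11604 with a mean of at least 1 FPKM, were Ap4e1 (Pearson r = 0.972), a subunit of an adaptor complex of vesicle transport, and Snx10 (r = 0.970), a sorting nexin. Libraries of 1 RNA sample share their RNA and their GC slope, so these r are a description. Like Isl1, both were highest in day 0 replicate 2, with means of 9.74 and 27.5 FPKM, and neither passed between the days.

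Lists of related genes were looked at around the 9, by counts in the same limma fit. The counts of each list, here and in the paragraphs that follow, stand beside 30.4% called of all genes tested. Of all genes, 16% were called as higher and 14.5% as lower. Of 14 other genes of the ventral progenitor domains, 4 were called as higher, 2 as lower and 8 not, with a median log2 fold change of -0.22. Shh, the Sonic hedgehog signal itself, went from 0.259 ± 0.0702 to 1.26 ± 0.458 FPKM (adjusted p = 0.0312), and Foxa2, a floor plate and endoderm factor, from 0.307 ± 0.0596 to 0.825 ± 0.140 FPKM (adjusted p = 0.0414). Pax6 rose from 0.130 to 0.372 FPKM and Irx5 from 0.0910 to 0.374 FPKM. Olig1, the neighbour of Olig2, fell from 0.0694 to 0.00363 FPKM, and Dbx2 fell from 0.117 to 0.00838 FPKM. Irx3, at 0.469 and 0.288 FPKM, did not pass (adjusted p = 0.399). Shh was the only gene of this list at 1 FPKM or more in any RNA sample, and Foxa2 and Olig1 were not called with the GC correction. Nkx6-1, which acts beside Olig2 in motor neuron progenitors, is given here although it was named after its values were seen. Its day means were 0.225 ± 0.181 and 0.0224 ± 0.00159 FPKM, and it did not pass (adjusted p = 0.0987, limma). With day 0 replicate 2 from mixes 1 and 2 it was called as lower, but not with the GC correction.

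Of 19 partner, column and subtype genes of motor neurons, 8 were called as higher, 7 as lower and 4 not, with a median log2 fold change of 0.15. Many of these genes are also used in other tissues. Foxp1, which sets limb motor columns, rose from 2.19 ± 0.00725 to 39.2 ± 2.28 FPKM (adjusted p = 0.00468), and Aldh1a2, which makes RA, rose from 0.853 to 11.9 FPKM. Gfra1, a receptor for Gdnf, rose from 0.0986 to 13.2 FPKM, while Ret, which signals with it, fell from 0.777 to 0.0763 FPKM. Esrrg rose from 0.0284 to 2.77, Pou3f1 from 0.647 to 4.74, Chodl from 0.00400 to 0.287, Onecut2 from 0.0151 to 0.252 and Neurog2 from 0.00250 to 0.0380 FPKM. Tbx20 fell from 21.1 ± 3.82 to 1.503 ± 0.00194 FPKM (adjusted p = 0.00478) and Tbx3 from 19.3 to 3.90 FPKM. Prph, an intermediate filament of peripheral neurons, fell from 9.08 to 0.0668, Mmp9 from 4.40 to 0.0501, Etv4 from 15.1 to 1.03 and Ebf2 from 0.103 to 0.0286 FPKM. The genes called thus moved in both directions, and Neurog2, the proneural factor that acts with Olig2, stayed below 0.1 FPKM in every RNA sample.

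Of 10 cofactors of LIM homeodomain proteins, 4 were called as higher and 2 as lower, with a median of -0.13. They summed to 222 to 284 FPKM at day 0 and to 202 to 212 FPKM at day 4, and all 10 were at 1 FPKM or more in at least 1 RNA sample. Lmo2, which competes with LIM homeodomain proteins for Ldb1, fell from 59.1 ± 3.45 to 7.78 ± 0.139 FPKM (adjusted p = 0.00468), and Lmo1 fell from 3.23 to 0.534 FPKM. Lmo4 rose from 10.9 to 35.5, Ssbp2 from 1.77 to 10.4, Ldb2 from 0.483 to 7.85 and Lmo3 from 0.0246 to 3.79 FPKM. These and the genes of the further lists that are not among the 3 highest of their list were named after their values were seen. Ssbp3, at 43.0 and 34.9 FPKM, and Rlim, at 83.2 and 81.8 FPKM, did not pass (adjusted p = 0.391 and 0.982), although Rlim was called as lower with the GC correction.

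Of 12 genes of cholinergic transmission, 3 were called as higher, 2 as lower and 7 not, with a median of 0.34. Slc5a7, the choline transporter of cholinergic terminals, fell from 1.01 ± 0.382 to 0.0573 ± 0.00707 FPKM (adjusted p = 0.0117), and Chrna7, a nicotinic receptor subunit, fell from 2.14 to 0.471 FPKM. Slc44a1, a choline transporter of many cell types, rose from 10.3 ± 0.698 to 26.4 ± 0.458 FPKM (adjusted p = 0.0111). Chrna5 rose from 0.191 to 1.11 FPKM and Colq, which anchors acetylcholinesterase, from 0.00950 to 0.169 FPKM. Bche, at 3.59 and 8.03 FPKM, did not pass (adjusted p = 0.0643), although it was called as higher with the GC correction. Slc18a3, which loads acetylcholine into vesicles and lies within the Chat locus, was named after its values were seen. Its day means were 0.0894 ± 0.0734 and 0.00713 ± 0.00654 FPKM, and it did not pass (adjusted p = 0.128, limma). It was called as lower with day 0 replicate 2 from mixes 1 and 2, but not with the GC correction.

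**Figure D5:**
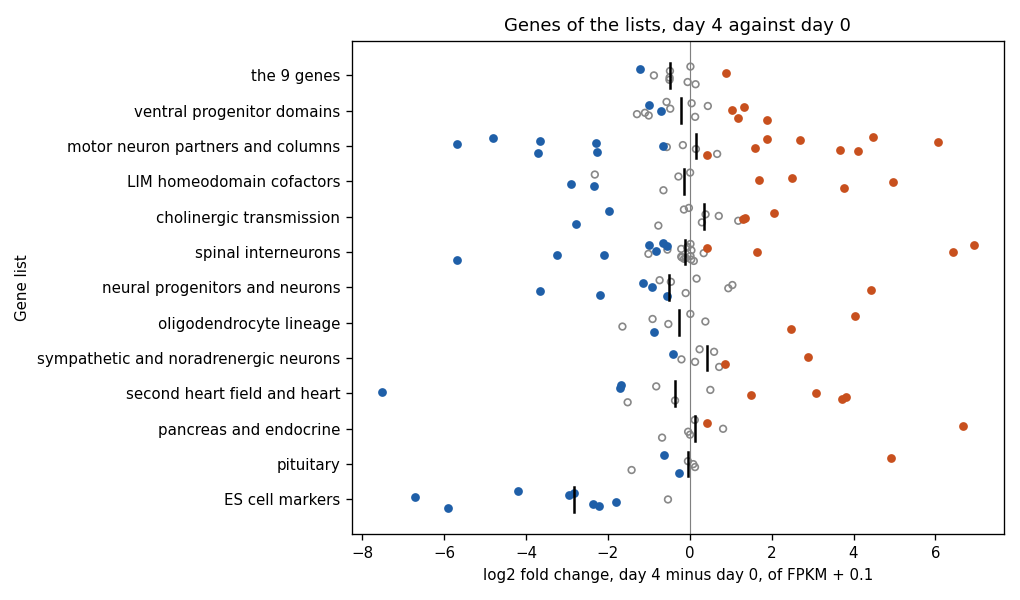
Log2 fold change of day 4 against day 0 of FPKM + 0.1 for the genes of the 9 and of 12 related lists, 1 point a gene, filled orange where called as higher, filled blue where called as lower and open where not called, with a black bar at the median of the list. The 9 genes lie between -1.23 and 0.89, and 8 of the 9 ES cell markers are called as lower.

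The name of the group was checked against markers of the cell types that these genes serve. Of 12 markers of neural progenitors and neurons, 1 was called as higher and 5 as lower, and their summed FPKM ranged from 44.8 to 71.3 over the libraries of day 0 and from 34.2 to 36.9 at day 4. Tubb3, the tubulin of young neurons, fell from 12.03 ± 7.88 to 0.761 ± 0.160 FPKM (adjusted p = 0.0213) and Stmn2 from 9.93 to 4.47 FPKM (adjusted p = 0.0389). Sox2 fell from 7.20 to 1.46, Elavl3 from 0.154 to 0.0333 and Sox1 from 0.113 to 0.0451 FPKM, while Dcx, a microtubule protein of migrating neurons, rose from 0.0126 to 2.31 FPKM. Sox1 was not called with the GC correction. Map2 was at 1.22 ± 0.378 and 2.40 ± 0.376 FPKM (adjusted p = 0.101) and Elavl4 at 0.375 ± 0.160 and 0.851 ± 0.0833 FPKM (adjusted p = 0.0882). Neither passed, but both were called as higher with day 0 replicate 2 from mixes 1 and 2, and Map2 with the GC correction. Nes, a filament of progenitors, made up much of the sum at 20.8 and 19.3 FPKM and did not pass (adjusted p = 0.683). Of 26 genes of spinal interneurons, 4 were called as higher and 7 as lower, and 15 stayed below 0.1 FPKM in every RNA sample. Their sum, 32.1 to 54.7 FPKM at day 0 and 102 to 112 FPKM at day 4, followed mostly Tal1 and Evx1 at day 0 and Wt1 and Lhx2 at day 4. A sum that follows so few genes is not a measure of spinal interneurons at either day. Wt1 rose from 0.532 ± 0.00389 to 77.9 ± 3.09 FPKM and Lhx2 from 0.142 ± 0.0223 to 20.8 ± 0.632 FPKM (adjusted p = 0.00468 for both), and Tal1, also a blood factor, fell from 20.5 to 2.06 FPKM. Evx1, also a gene of the primitive streak, fell from 13.0 ± 5.85 to 0.142 ± 0.00902 FPKM (adjusted p = 0.00578). Lhx9 rose from 0.0398 to 0.335 FPKM and Ptf1a from 0 to 0.0348 FPKM. Chat, Olig2 and Nkx2-2 were at or near 0 at both days, which goes against calling the EBs motor neurons or ventral spinal progenitors as a whole, and the 9 genes are described here by their symbols only.

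Lists of other tissues that use Isl1, Phox2a, Lhx3 and Lhx4 were set beside the 30.4% called of all genes. Those of the heart, of sympathetic neurons and of the pituitary held genes called in both directions. The part of these tissues in the values of Isl1, Phox2a, Lhx3 and Lhx4 was not tested. Of 11 genes of the second heart field and heart, 4 were called as higher and 3 as lower, with sums of 36.4 to 72.8 FPKM at day 0 and 87.3 to 92.7 FPKM at day 4. Gata6 rose from 6.36 to 54.4 FPKM and Gata4 from 6.60 to 18.6 FPKM, and Hand1 fell from 27.1 to 0.0406 FPKM. Mef2c rose from 0.5258 to 8.66 and Tbx5 from 0.0258 to 1.55 FPKM, and Fgf10 fell from 7.28 to 2.17 and Myh6 from 0.286 to 0.0108 FPKM. Nkx2-5, a defining factor of heart progenitors, was at 0.207 ± 0.159 FPKM at day 0 and at 0 in both RNA samples of day 4, and did not pass (adjusted p = 0.0604), although it was called as lower with the GC correction. Of 8 sympathetic and noradrenergic genes, 2 were called as higher and 1 as lower, with sums of 6.08 to 8.44 and of 30.3 to 33.9 FPKM. That sum followed Ddc, which rose from 3.52 to 26.4 FPKM. Slc6a2 fell from 0.0593 to 0.0190 FPKM but was not called with the GC correction. Hand2 (2.23 and 3.68 FPKM) and Slc18a2 (0.964 and 1.51 FPKM) did not pass. Hand2 was called as higher with day 0 replicate 2 from mixes 1 and 2, but not with the GC correction. The defining enzymes Th and Dbh were below 0.1 FPKM in every RNA sample. Of the 7 pituitary genes tested, 1 was called as higher and 2 as lower. Cga, a glycoprotein hormone subunit, rose from 0.0706 to 4.96 FPKM, and Tshb fell from 0.0553 FPKM to 0, while Pitx1 (0.748 and 0.157 FPKM) did not pass. Pitx1 was called as lower with day 0 replicate 2 from mixes 1 and 2, but not with the GC correction.

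Of the 7 pancreatic and endocrine genes tested, 2 were called as higher and 0 as lower. Sst rose from 0.0275 to 12.6 FPKM, the other being Ptf1a. Gcg is also a spike-in gene, and its RefSeq row followed the mix, from at most 0.334 FPKM in mix 4 to 6.22 to 16.6 FPKM in mix 3. Without Gcg the list summed to 0.0190 to 0.382 FPKM at day 0 and to 10.7 to 15.5 FPKM at day 4. Of the 8 oligodendrocyte genes tested, which follow Olig2 in the spinal cord, 2 were called as higher and 1 as lower, with sums of 11.7 to 22.0 and of 46.7 to 53.0 FPKM. Pdgfra rose from 6.69 to 37.2 FPKM and Myrf from 0.280 to 6.11 FPKM, both known outside this lineage too. Sox10 fell from 0.111 to 0.0141 FPKM, a call that was lost with the GC correction. Cnp, at 7.93 and 3.97 FPKM, did not pass. With day 0 replicate 2 from mixes 1 and 2 Cnp was called as lower, but not with the GC correction. Of the 9 ES cell markers, 0 were called as higher and 8 as lower, with sums of 107 to 220 FPKM at day 0 and of 7.92 to 14.4 FPKM at day 4. Pou5f1 fell from 62.2 ± 35.4 to 0.864 ± 0.242, Tdgf1 from 51.4 ± 7.997 to 0.388 ± 0.0355 and Dppa5a from 39.8 ± 11.6 to 5.17 ± 2.26 FPKM.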

How the data were processed

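Expression was analysed in 16 total RNA libraries (paired-end, strand specific) of 4 RNA samples. The authors aligned reads with Bowtie2 2.1.0 to RefSeq transcripts of mm10 and the spike-in transcripts, estimated abundance with RSEM 1.2.18, and deposited FPKM scaled by a TMM factor per library; all 16 columns were matched by sample title. Per the labels, between 39000000 and 59000000 paired-end reads were sequenced per sample. The table holds no fragment counts, and whole reads could not be recovered from its rounded values, so the fragments behind a value are unknown and no counting error is given. The 48 spike-in rows and the RefSeq row of 1700047L14Rik were left out. RefSeq tables of GRCm38.p6 gave symbols (98.6% of rows), positions and promoter sequences. GC content (97.4% of rows) came from the sequences of the GENCODE transcripts matched to each RefSeq row, averaged where several matched. FPKM were summed per gene, averaged over the 4 vials, and fitted as log2(FPKM + 0.1) with limma 3.58.1 in R 4.3.3 (lmFit, eBayes with trend; Benjamini-Hochberg over the genes above 0 in any library; adjusted p at most 0.05). The fit was tested on simulated data. Python 3.11.15, pandas 2.3.3, numpy 2.4.6 and matplotlib 3.10.9 were used.

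The members and lists were chosen with earlier results of these data known. From each list the 3 genes of highest mean FPKM are named, with all called genes of the ventral progenitor, motor neuron partner and cholinergic lists. A few genes that this rule or a count would name are not reported here. Replicate numbers come from the study's description of its samples, as the labels give days and mixes only. The GC correction removes from each library its departure from the average library, taken as medians in 20 bins of GC content, and can also remove biological differences linked to GC content. Alternatives covered pseudocounts, filters, scaling, vials, the variance model, a replicate block and each RNA sample left out. With 2 RNA samples a day, the p-values rest only on the spread between these samples. That spread is partly pooled over genes, since eBayes draws the variance of each gene toward a trend.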

Additional observations from a re-analysis of the deposited data

Results flagged for a closer look

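Dixon's test at the 95% level, run on the 8 libraries of a day for each gene, picked out 5 groups of libraries. Chance picks about 1 in 20 groups of independent values, but the 8 libraries are vials of 2 RNA samples, and a lone value above 0 among zeros, as in Nkx2-2 and Chat, is picked by construction. The number picked is therefore not set against chance. For Nkx2-2, mix 1 of day 0 replicate 2 was at 0.03 FPKM and the other libraries at 0. For Chat, mix 3 of day 0 replicate 1 was at 0.011 FPKM and the others at 0. For Isl2, mix 1 of day 0 replicate 1 was at 0.866 FPKM, with the next library at 0.409 FPKM. For Lhx4, mix 4 of day 0 replicate 1 was at 0.126 FPKM, with the next at 0.054 FPKM, and mix 1 of day 4 replicate 1 was at 0.049 FPKM, with the next at 0.019 FPKM.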

How the results depend on the processing

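With 2 RNA samples a day, and with values of a few rounding steps for Olig2, Nkx2-2, Lhx4 and Chat in most libraries, little can be said of small differences. Against 3283 genes called as higher and 2972 as lower, the counts were 2094 higher with a mean of at least 1 FPKM, 1639 lower with no filter, 1046 and 366 with the mix 4 vials alone, 5560 and 6888 with day 0 replicate 2 from mixes 1 and 2, 5963 lower with the replicate block, 5640 and 4975 with the GC correction, and 6098 and 5605 with that correction and the replicate block. Leaving out an RNA sample gave 0 to 3654 called as higher and 0 to 5535 as lower; a lone sample is assumed to vary like the other day. Without either replicate of day 4 there were 0 calls in limma, with 4943 and 4721 genes at an unadjusted p under 0.05. The share of calls that were higher was 52.5%, and 74.1% with the mix 4 vials alone and 39.8% without day 0 replicate 2. The median log2 fold change of genes with a mean log2(FPKM + 0.1) above 0 was -0.15, and 0.12 with the same FPKM sum in every library. No gene of the 9 changed sign with the scaling.

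Against 1 of the 9 genes called as higher and 1 as lower, 0 were called as higher with a mean of at least 0.1 or 1 FPKM and with no filter, and 0 in each fit that left out an RNA sample. The filter at 0.1 FPKM left 3 of the 9 to test (Isl1, Isl2 and Phox2a) and that at 1 FPKM left 1 (Isl1). Lhx3 was thus tested under neither filter, and Phox2a not under that at 1 FPKM. With the mix 4 vials alone 1 was called as higher, Olig2 in place of Lhx3. Called as lower were 0 with a pseudocount of 1, a mean of at least 1 FPKM, no filter, log2 means of the vials, the mix 4 vials alone, eBayes without a trend and transcript rows not summed. They were 3 with day 0 replicate 2 from mixes 1 and 2 (Lhx4, Mnx1, Phox2a), 4 with the replicate block (Isl2, Lhx4, Mnx1, Phox2a), 2 with the GC correction with or without the block (Isl1, Lhx4), and 0 to 3 with an RNA sample left out, the 3 without day 0 replicate 2. Chat ranged from -0.0035 to 0.0356 as RNA samples were left out, and changed sign without day 0 replicate 2; it also changed sign, to -0.0018 with day 4 replicate 1 from mixes 2, 3 and 4, a setting added after the data were examined. Whether the replicate numbers pair the days is not given by the labels, and the differences between replicate 1 and 2 correlated between the days with r = 0.792 over 11354 genes; with 2 pairs, the block changed no call of the 9 other than those named.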
